A study of Rattus norvegicus with 10 samples.

Results

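The genes described here were 8 transcription regulators of red blood cell precursors (Hemgn, Nfe2, Klf1, Gata1, Tal1, Lmo2, Gfi1b and Zfpm1), the receptor for erythropoietin (Epor) and Mkrn1, an E3 ubiquitin ligase. They were listed by gene name, with no threshold on their values but with earlier results of these data known, and all 10 of the 10 genes were on the array, through 18 of its 31042 probe sets (the array carried 14217 genes in all). Mkrn1 is neither a transcription factor nor a receptor, and its values are given after those of the other genes.

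RNA was taken from the livers of male Sprague-Dawley rats labelled 5 weeks of age. The iron-deficient group (5 rats) ate a diet with 3 ppm iron for 3 days, and the pair-fed group (5 rats) received a control diet with 48 ppm iron in the amount the other group had eaten. Livers were removed 1.5 hours after feeding, and each liver was hybridised to 1 Affymetrix GeneChip array of rat transcripts, so that n = 5 in each group. For the pair-fed rats 1 of the label fields repeats the iron-deficient diet, whereas the sample titles and the treatment field give the control diet, and the groups follow the titles.

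Red blood cells arise from precursors in which Gata1, a zinc finger factor that binds the letters GATA, works in complexes with the basic helix-loop-helix factor Tal1, the bridging protein Lmo2 and the cofactor Zfpm1 (also called Fog1). Klf1 binds CACCC-type elements in the globin genes, Nfe2 pairs with small Maf proteins on globin and platelet genes, Gfi1b is a repressor of the same lineage, and Hemgn is a nuclear protein of haematopoietic precursors. Erythropoietin, made by kidney and liver, keeps these precursors alive through Epor and the kinase Jak2. The liver makes red blood cells in fetal and early postnatal life, and later it still holds circulating blood, whose youngest red cells (reticulocytes) carry RNA. In a bulk sample, fewer cells of a type and less RNA per cell cannot be told apart.

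Start regions are shown for Hemgn, Klf1, Mkrn1, Gata1 and Epor. They let the letters these factors are known to bind be seen next to the values of the genes. Each is the RefSeq window of 250 bases before to 50 bases after an annotated transcript start (assembly GRCr8), read 5′ to 3′ along the gene. RefSeq windows were matched for 8 of the 10 members, with 9 windows in all, since Hemgn had 2 starts. No window was matched for Nfe2 or Lmo2. Capitals mark the GATA-type letters AGATAA or TGATAA and, for factors of the Klf family, CCNCNCCC, on either strand. For Hemgn, the window at chr5:65485772-65486071 and the window at chr5:65494140-65494439 both lie on the minus strand. The windows of Klf1 (chr19:40158602-40158901), Mkrn1 (chr4:69163936-69164235) and Epor (chr8:28770273-28770572) are on the minus strand too, and that of Gata1 (chrX:17201387-17201686) is on the plus strand.
Hemgn, chr5:65485772-65486071: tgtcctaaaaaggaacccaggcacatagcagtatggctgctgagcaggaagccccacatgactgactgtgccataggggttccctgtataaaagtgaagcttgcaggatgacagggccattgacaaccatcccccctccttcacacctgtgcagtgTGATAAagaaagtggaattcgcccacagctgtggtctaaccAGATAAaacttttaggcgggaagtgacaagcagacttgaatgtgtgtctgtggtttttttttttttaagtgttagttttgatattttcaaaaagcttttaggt
Hemgn, chr5:65494140-65494439: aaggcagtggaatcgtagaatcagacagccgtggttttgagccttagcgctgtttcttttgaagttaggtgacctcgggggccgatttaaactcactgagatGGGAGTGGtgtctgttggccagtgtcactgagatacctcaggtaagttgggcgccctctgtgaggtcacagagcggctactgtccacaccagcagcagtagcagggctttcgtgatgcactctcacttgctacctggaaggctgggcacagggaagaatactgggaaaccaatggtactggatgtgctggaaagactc
Klf1: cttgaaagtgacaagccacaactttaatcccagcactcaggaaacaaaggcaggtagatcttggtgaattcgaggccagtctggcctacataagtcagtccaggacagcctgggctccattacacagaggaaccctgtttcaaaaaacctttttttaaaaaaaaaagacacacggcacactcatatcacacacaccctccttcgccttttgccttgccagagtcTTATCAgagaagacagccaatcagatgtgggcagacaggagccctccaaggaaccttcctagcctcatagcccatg
Mkrn1: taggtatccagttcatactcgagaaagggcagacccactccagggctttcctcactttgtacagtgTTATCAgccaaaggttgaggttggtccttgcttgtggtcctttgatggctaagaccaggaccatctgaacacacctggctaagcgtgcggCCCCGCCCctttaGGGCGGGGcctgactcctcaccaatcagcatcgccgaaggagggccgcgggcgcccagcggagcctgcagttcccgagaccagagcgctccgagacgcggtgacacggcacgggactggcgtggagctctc
Gata1: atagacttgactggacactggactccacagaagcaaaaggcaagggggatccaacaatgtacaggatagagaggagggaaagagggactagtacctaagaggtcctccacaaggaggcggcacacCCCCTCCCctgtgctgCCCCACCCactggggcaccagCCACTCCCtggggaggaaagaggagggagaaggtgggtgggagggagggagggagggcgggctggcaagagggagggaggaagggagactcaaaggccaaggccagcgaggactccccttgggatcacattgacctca
Epor: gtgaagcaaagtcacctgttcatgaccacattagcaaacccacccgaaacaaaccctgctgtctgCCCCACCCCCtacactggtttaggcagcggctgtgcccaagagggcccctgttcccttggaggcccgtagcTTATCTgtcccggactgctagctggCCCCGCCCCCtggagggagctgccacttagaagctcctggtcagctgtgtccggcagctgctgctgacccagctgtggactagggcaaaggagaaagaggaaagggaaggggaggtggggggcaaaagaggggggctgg

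The first Hemgn window held TGATAA at positions -94 to -89 and AGATAA at -53 to -48 before the start, and the second held a single CCNCNCCC match on its reverse strand at -148 to -141. Klf1 held TGATAA on the reverse strand at -26 to -21, and Mkrn1 held it on the reverse strand at -184 to -179 beside CCNCNCCC matches at -94 to -87 and -81 to -74. Gata1 held 3 CCNCNCCC matches and no GATA-type match in its window. Epor held AGATAA on the reverse strand at -114 to -109 together with 4 CCNCNCCC matches that overlap in pairs. Over the 9 windows of the members, 5 held a GATA-type match and 7 held CCNCNCCC, against 18.9% and 46.3% of all 33469 rat windows of the same length. TGANTCA, the letters that Nfe2 with its Maf partner and AP-1 factors can bind, was in 0 of the 9 windows and in 7.33% of all windows. These matches describe letters in a window and are not measured binding sites.

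The question put to the arrays was which of these genes differed in the liver after 3 days of low dietary iron. Signals are log2 values after RMA normalisation (robust multi-array average), and differences are given as iron-deficient mean minus pair-fed mean. Calls were made by rank products, which ranks the difference of every iron-deficient array from every pair-fed array (25 pairs), at a false discovery rate (FDR) under 0.05 over all probe sets. By this rule 3 of the 18 probe sets of the members were down-regulated, 1 each of Hemgn, Nfe2 and Mkrn1, and 0 were up-regulated. Of all 31042 probe sets 0.841% were called (0.561% lower and 0.28% higher). The other 7 genes, with 12 probe sets, had no call, and their differences ran from -0.35 (Klf1) to 0.22 (Zfpm1). Over the 18 probe sets the mean was lower in the iron-deficient group for 8 and higher for 10, with a median difference of 0.02, and the median over all probe sets was 0.00. With limma, 6 of the 18 had an unadjusted p under 0.05 (6.98% of all probe sets did), each of them lower in the iron-deficient group (3.77%), and 0 of the 18 or of all probe sets had an adjusted p under 0.05. The adjusted p from limma lay between 0.494 and 0.987 for the members.

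**Figure D1:**
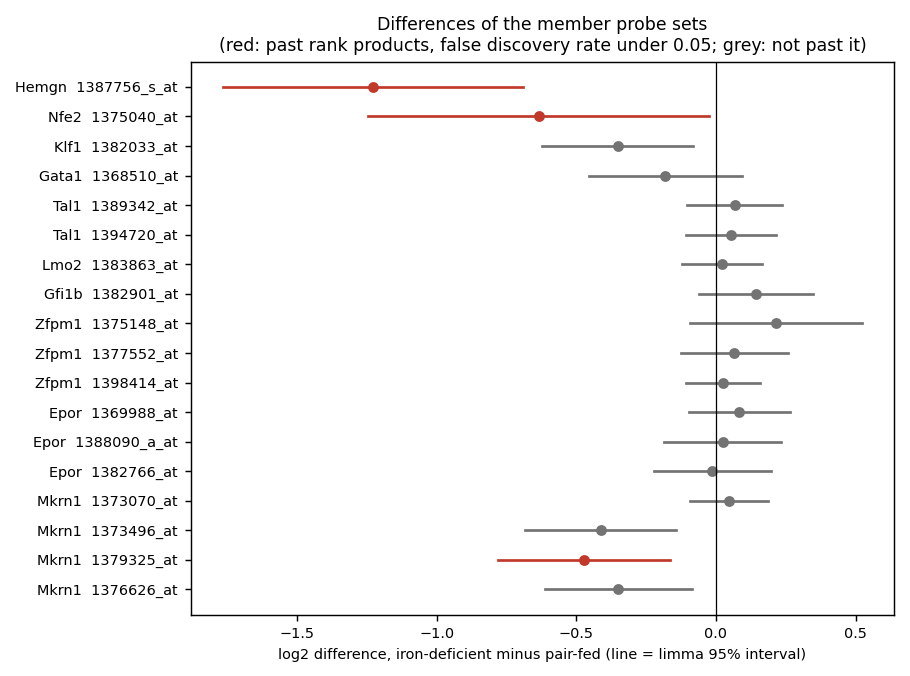
Difference in log2 signal (iron-deficient minus pair-fed, n = 5 each) for the 18 probe sets of the 10 genes, with bars for the 95% interval from limma. Hemgn stands lowest at -1.23, followed by Nfe2 at -0.64 and Mkrn1 probe set 1379325_at at -0.47, while the probe sets of Tal1, Lmo2, Gfi1b, Zfpm1 and Epor lie around 0.

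Hemgn showed the lowest difference among the members. In the pair-fed rats 1 to 5 its probe set 1387756_s_at read 5.21, 6.82, 6.49, 6.09 and 5.90 on the log2 scale, and in the iron-deficient rats 1 to 5 it read 5.10, 4.50, 4.70, 5.18 and 4.89. Every iron-deficient array was below every pair-fed array, but the gap between the highest iron-deficient and the lowest pair-fed value was 0.03, and pair-fed rat 1 stood near the iron-deficient rats. The group means were 4.87 ± 0.28 and 6.10 ± 0.61 (SD, n = 5), which puts the iron-deficient signal at 42.7% of the pair-fed one (95% interval of the log2 difference -1.77 to -0.69). Among all probe sets that were lower, Hemgn was number 2 in the rank products order, with an FDR estimated at 0, and the exact permutation p was 0.00794 (two-sided), the smallest that 5 against 5 arrays allow. Separation without overlap in the lower direction occurred in 0.799% of all probe sets (1.29% in either direction) and in 1 of the 18, that of Hemgn. The call was made in 10 of 10 repeats that each left out an array, and the difference then lay between -1.45 and -1.05.

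Nfe2, the large subunit of the NF-E2 factor, was also called down-regulated. Its probe set 1375040_at read 6.71, 6.44, 5.56, 5.30 and 6.33 in the pair-fed rats and 4.91, 5.81, 5.18, 5.21 and 6.05 in the iron-deficient rats. The groups overlapped: pair-fed rats 3 and 4 were below iron-deficient rats 2 and 5. The difference was -0.64 ± 0.28 (SE), 64.4% of the pair-fed signal, with an FDR of 0.0062, whereas the exact permutation test across the arrays gave p = 0.103. The call was made in 8 of 10 repeats that left out an array, and was lost without pair-fed rat 1 (-0.47) or pair-fed rat 2 (-0.54). The within-group SD of Nfe2, 0.55, was the highest of the 18 probe sets (median over all probe sets 0.14), and that of Hemgn was 0.48.

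**Figure D2:**
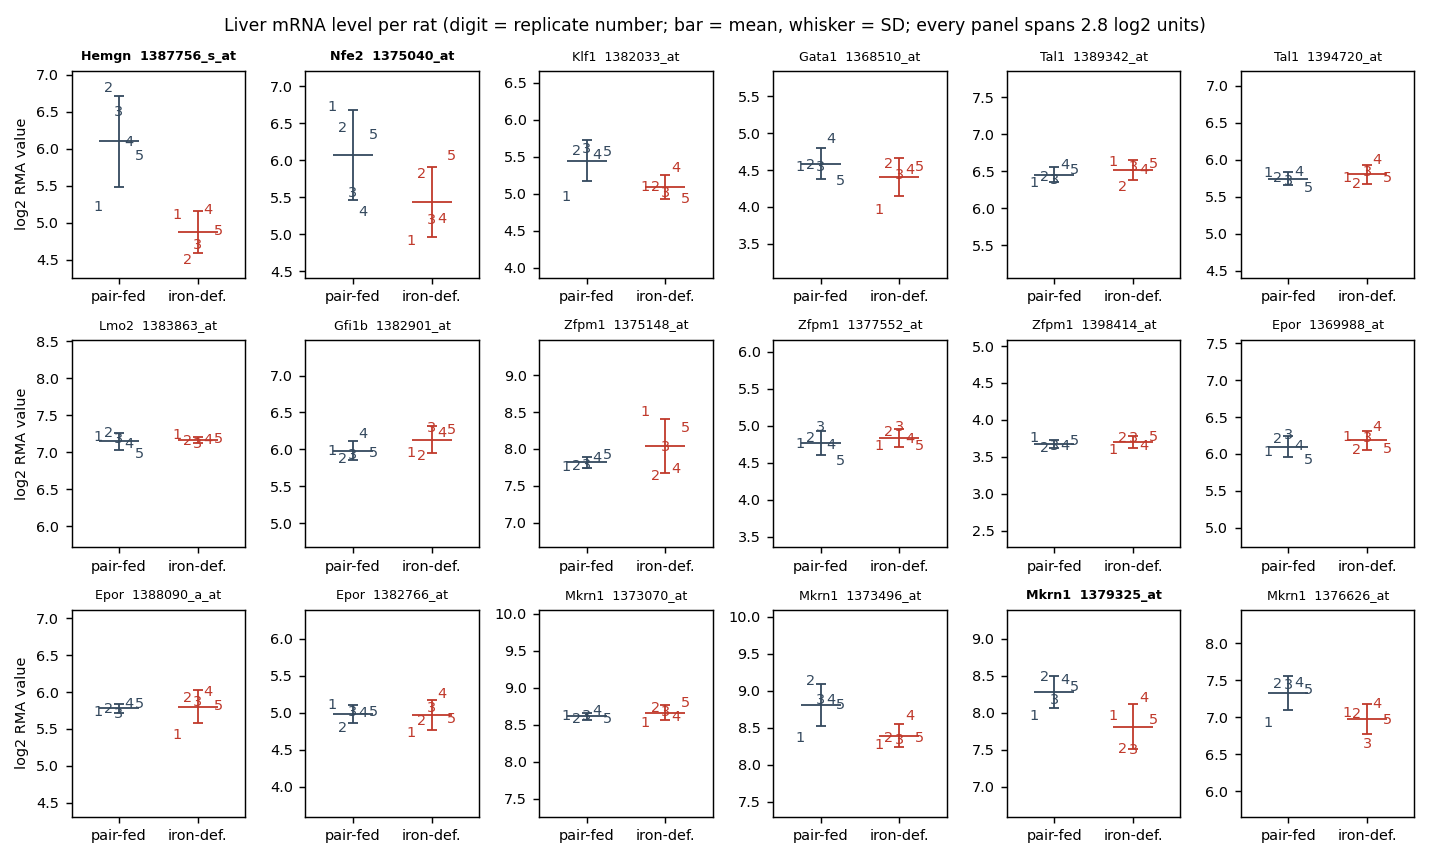
Log2 signal of each rat for the 18 probe sets, with pair-fed and iron-deficient rats side by side, digits for the replicate number, horizontal lines for the group means, whiskers for the SD and bold titles for called probe sets. Every panel spans 2.8 log2 units so that spreads can be compared. Hemgn is the 1 panel in which the groups do not overlap, and pair-fed rat 1 is the lowest pair-fed array for Hemgn and Klf1 but the highest for Nfe2.

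Klf1 and Gata1 lie at the head of the same programme, and neither was called. For Klf1 the pair-fed rats read 4.95, 5.58, 5.60, 5.53 and 5.57 and the iron-deficient rats 5.09, 5.09, 5.01, 5.36 and 4.93. In this gene 4 of the 5 pair-fed rats stood above every iron-deficient rat and pair-fed rat 1 stood among them. The difference of Klf1 was -0.35 ± 0.13 (SE), with an FDR of 0.116 and an exact permutation p of 0.0397. Leaving out pair-fed rat 1 moved it to -0.47, and it was called in 0 of 10 such repeats. For Gata1 the pair-fed rats read 4.54, 4.57, 4.55, 4.92 and 4.36 and the iron-deficient rats 3.97, 4.58, 4.44, 4.50 and 4.55. All iron-deficient arrays except that of rat 1 lay within the pair-fed range, and the difference, -0.18 ± 0.13 (SE), had an exact permutation p of 0.349 and a 95% interval of -0.46 to 0.09. Without iron-deficient rat 1 the Gata1 difference was -0.07. The mean signals of Gata1, Klf1, Hemgn and Nfe2 were above those of 22.2%, 35.6%, 39.0% and 43.1% of all probe sets, so that all 4 were read below the median of the array.

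The factors that work with Gata1 showed no call in either direction. Tal1 had 2 probe sets with differences of 0.07 ± 0.08 and 0.06 ± 0.07 (SE), and the pair-fed and iron-deficient ranges of the brighter, 6.34 to 6.59 and 6.29 to 6.63, covered each other. Lmo2 differed by 0.02 ± 0.07, with pair-fed rats between 6.97 and 7.26 and iron-deficient rats between 7.11 and 7.23. These values leave room for differences within -0.12 and 0.24 on the log2 scale (the outer ends of the 95% intervals of Tal1 and Lmo2). Gfi1b read 5.87 to 6.21 in the pair-fed group and 5.91 to 6.29 in the iron-deficient group, a difference of 0.14 ± 0.09. Zfpm1 was read by 3 probe sets, whose differences were 0.22 ± 0.14, 0.07 ± 0.09 and 0.03 ± 0.06. The brightest of them, 1375148_at, spread from 7.64 to 8.50 in the iron-deficient rats and only from 7.75 to 7.92 in the pair-fed rats, and iron-deficient rat 1 was the highest. No exact permutation p of these 4 genes was under 0.175.

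Epor was read by 3 probe sets, and none was called. The brightest, 1369988_at, read 6.03, 6.20, 6.25, 6.11 and 5.92 in the pair-fed rats and 6.23, 6.05, 6.22, 6.36 and 6.07 in the iron-deficient rats. The groups overlapped widely, and the difference of 0.08 ± 0.08 (SE) had a 95% interval of -0.10 to 0.27 and an exact permutation p of 0.373. The other 2 probe sets differed by 0.03 and -0.01, and both changed sign in repeats that left out an array (-0.03 to 0.12 and -0.08 to 0.05).

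Of the genes around the receptor, 17 were measured from a list of 19 names for erythropoietin and its signalling (Erfe also stood as Fam132b). Of these 0 were called, a count that a list of this size would also give at the 1.03% called over all genes. The median difference was 0.03 (8 lower, 9 higher). Epo itself, the hormone, differed by 0.16 ± 0.07 at a dim mean of 4.14 against 3.98, with an exact permutation p of 0.0556. The largest differences on that list were those of Socs2, a feedback inhibitor of cytokine receptors, at 0.45 ± 0.42 (FDR 0.0609), and Cish, a related inhibitor, at 0.21 ± 0.58. The SE was nearly as large as the difference for Socs2 and well above it for Cish (95% interval -1.04 to 1.47). Jak2, the kinase bound to Epor, differed by 0.05 ± 0.09, and Stat5a and Stat5b, the factors it activates, by -0.03 ± 0.09 and -0.01 ± 0.11.

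Mkrn1 gave different answers by probe set. Probe set 1379325_at read 7.96, 8.49, 8.18, 8.44 and 8.35 in the pair-fed rats and 7.96, 7.52, 7.50, 8.19 and 7.90 in the iron-deficient rats. Here 3 pair-fed rats were above every iron-deficient rat, and pair-fed rats 1 and 3 were not. The difference, -0.47 ± 0.14 (SE), had an FDR of 0.0312 and an exact permutation p of 0.0397. It was called in 4 of 10 repeats that left out an array, and was lost without iron-deficient rat 2 (-0.40) or 3 (-0.39) and without pair-fed rat 2 (-0.42), 3 (-0.50), 4 (-0.43) or 5 (-0.46).

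A further pair of Mkrn1 probe sets lay lower without a call. Probe set 1373496_at read 8.36, 9.13, 8.87, 8.88 and 8.81 in the pair-fed rats and 8.27, 8.36, 8.34, 8.66 and 8.36 in the iron-deficient rats. All pair-fed rats but rat 1 were above every iron-deficient rat. Its difference of -0.41 ± 0.12 had an FDR of 0.0516, just outside the threshold, and an exact permutation p of 0.0317. With 10 other random seeds the FDR lay between 0.047 and 0.0514 and was under the threshold in 4. Probe set 1376626_at differed by -0.35 ± 0.12 (FDR 0.144). The brightest probe set of the gene, 1373070_at, differed by 0.05 ± 0.06 with a 95% interval of -0.09 to 0.19, and its pair-fed and iron-deficient values, 8.58 to 8.69 and 8.52 to 8.79, covered each other. When the 4 probe sets were averaged, Mkrn1 differed by -0.30 with an FDR of 0.215 and was not called, so that 2 genes, Hemgn and Nfe2, were called on gene means. Which transcripts each probe set reads was not examined here.

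Other transcription regulators of the lineage formed a list of 25, of which 23 were measured. By the brightest probe set 0 of the 23 were called and 1.03% of all 14217 genes were, a share at which no call in 23 genes is no result about the list. The median difference was 0.06 (8 lower, 15 higher). Lyl1, a close relative of Tal1, was the 1 gene of the 23 without overlap (1.29% of all probe sets were without overlap in either direction), at 6.29 to 6.48 in the iron-deficient rats and 6.51 to 6.79 in the pair-fed rats. Its difference was -0.29 ± 0.08 (FDR 0.291, exact permutation p = 0.00794). Tfdp2, a partner of E2F factors, differed by 0.22 ± 0.12 by its brightest probe set, whereas the other 2 probe sets of the gene differed by -0.39 ± 0.14 and -0.48 ± 0.12, and the last of these was called. Runx1 (-0.13 ± 0.12) and E2f2 (-0.17 ± 0.11) were lower without a call, and Ldb1, the partner of Lmo2, differed by 0.15 ± 0.08.

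Red cell genes placed under these factors were read from a list of 35 names (Ahsp also stood as Eraf), of which 24 were measured. The list was written with earlier results of these data known, so its count of calls is a description and no support. Control of these genes by the factors was not tested. By the brightest probe set 9 were down-regulated (0.746% of all genes were), 0 up-regulated and 15 not called, with 20 of 24 lower and a median difference of -0.30. The haemoglobin chains Hba-a3 (-1.15 ± 0.29) and Hbb (-0.67 ± 0.14) were called, as were Ahsp, which stabilises free alpha globin (-1.08 ± 0.27), and Alas2, the first enzyme of red cell haem synthesis (-0.96 ± 0.23). Bpgm, which makes the effector that loosens oxygen binding, fell by 0.89 on the log2 scale. The anion exchanger Slc4a1 and the blood group protein Rhd fell by 0.74 and 0.68. For Slc4a1 the SE was 0.30 and the exact permutation p 0.0873. Its other probe set differed by -0.37 ± 0.14 without a call (FDR 0.109). Tmcc2 (-0.72 ± 0.37) and the ubiquitin ligase Ube2o (-0.47 ± 0.21) completed the calls of brightest probe sets. Dimmer probe sets of Car2, a carbonic anhydrase (-0.65 ± 0.12, without overlap), and of Kel, a blood group protein (-0.56 ± 0.14), were called too, while the brightest of these genes differed by -0.28 and 0.04. Fech, which adds the iron that completes haem, differed by -0.39 ± 0.08 without overlap between the groups, with an FDR of 0.0844. Separation in the lower direction, as for Car2 and Fech, occurred in 0.799% of all probe sets. Tfrc, the transferrin receptor, differed by 0.18 ± 0.09.

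The mean over the 24 red cell genes was 7.90, 8.40, 8.31, 8.24 and 8.18 in the pair-fed rats and 7.78, 7.66, 7.77, 8.00 and 7.86 in the iron-deficient rats. Pair-fed rat 1 was thus the lowest of its group here as it was for Hemgn, Klf1 and the 3 lower Mkrn1 probe sets, and it lay below iron-deficient rat 4. To describe how the members moved with this mean from rat to rat, each value was taken as its deviation from its own group mean. Over the 10 arrays the deviations of Hemgn correlated with those of the red cell mean at r = 0.93 (rho = 0.89), and at r = 0.81 without pair-fed rats 1 and 2, the arrays farthest from the median. Mkrn1 probe set 1373496_at gave r = 0.93 (rho = 0.83, and 0.79 without those arrays), and Klf1 gave r = 0.83 (rho = 0.73, and 0.60 without them). The called Mkrn1 probe set 1379325_at gave a lower r = 0.77 (rho = 0.79, and 0.69 without them). Mkrn1 probe set 1376626_at gave r = 0.725 (rho = 0.72, and 0.42 without them). For Nfe2 the value was r = -0.36 (rho = -0.22, and -0.32 without those arrays), and for Gata1 it was 0.11. The 2 Tal1 probe sets gave 0.36 and 0.26 (0.29 and 0.725 without those arrays). Lmo2 gave 0.105 and Gfi1b 0.17 (0.215 and 0.48 without them). Zfpm1, by its 3 probe sets, gave 0.004, 0.12 and -0.61. The last of these, 1398414_at, had rho = -0.56 and gave -0.40 without those arrays. The 3 Epor probe sets gave r = 0.64 (rho = 0.60, brightest probe set), 0.18 (rho = -0.02) and -0.04 (rho = -0.10). Without pair-fed rats 1 and 2 they gave 0.70, 0.19 and 0.65, so the last value depended on those arrays. That probe set, 1382766_at, gave 0.69 within the iron-deficient rats and -0.835 within the pair-fed rats. The brightest Mkrn1 probe set gave -0.16. Between members, Klf1 and Mkrn1 (1373496_at) gave r = 0.89, Hemgn and the same Mkrn1 probe set 0.85 and Hemgn and Klf1 0.77. Mkrn1 probe sets 1379325_at, 1376626_at and 1373070_at gave 0.695, 0.72 and -0.33 with Hemgn, and 0.65, 0.85 and -0.29 with Klf1. These are descriptions of 10 arrays that share 1 normalisation, given without a test.

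**Figure D3:**
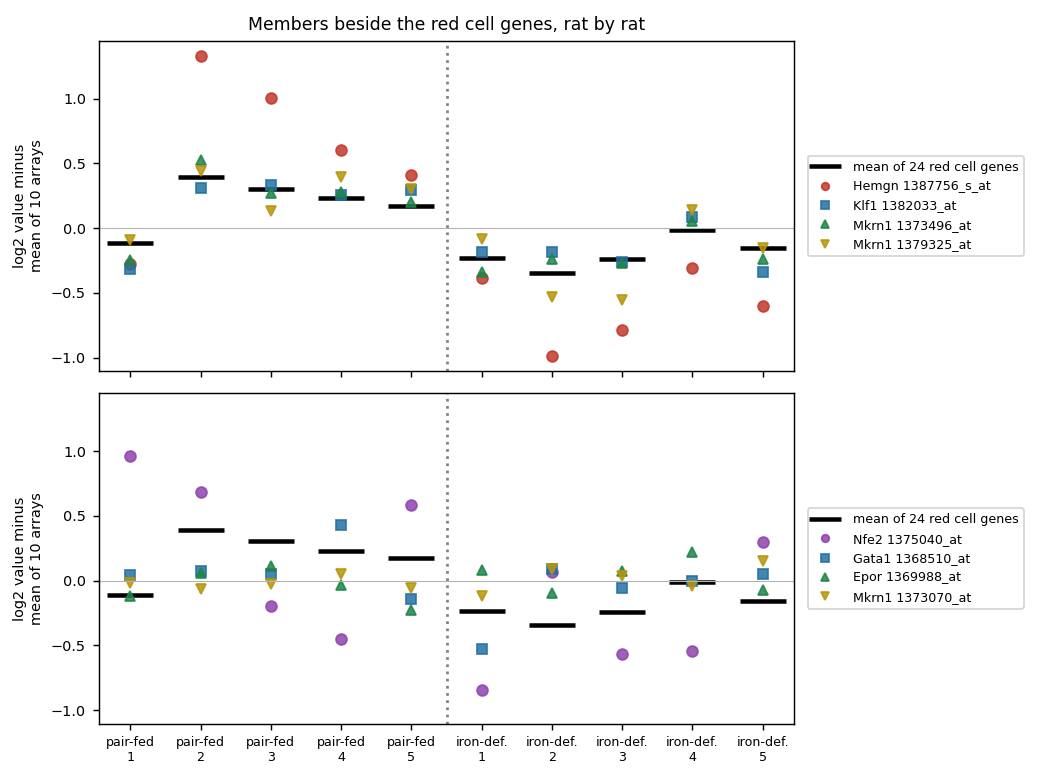
Log2 signal minus the mean of the 10 arrays for each rat: black bars mark the mean of the 24 red cell genes in both panels, with Hemgn, Klf1 and 2 Mkrn1 probe sets above and Nfe2, Gata1, Epor and the brightest Mkrn1 probe set below. The genes of the upper panel lie low in pair-fed rat 1 together with the red cell mean, whereas Nfe2 is at its highest there.

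For each member the 5 genes whose deviations were most like those of its brightest probe set were listed, over the same 10 arrays. The r values of these 50 genes lay between 0.89 and 0.99, as the highest of all genes on the array, and 2 of the 50 were called (1.03% of all genes were). For Hemgn they were Proser2, Cdc25b, Eif4e, Ankh and Atp2c1 (0.92 to 0.95). Of these Cdc25b, a phosphatase of the cell cycle, was called lower, at -0.84 ± 0.26 (exact permutation p = 0.0397), while Proser2 differed by 0.08 ± 0.13. For Nfe2 they were LOC102553190, Gps1, Dcps, Pcdh17 and Ttc28 (0.91 to 0.96), and for Klf1 Zfp593, Trim11, LOC100912031, Cnmd and Mkrn1 (0.89 to 0.95). Gata1 was most like Rps29, Madcam1, Crb3, Mrpl51 and Commd4, and Tal1 most like Nr2f6, Ercc5, Trak2, Poldip3 and Usf2. Lmo2 moved most closely with Kcnk6, Snx21, Clec3b, Zer1 and Brf1. The genes nearest to Gfi1b were Tbx2, Orm1, LOC102548374, Otud7b and Nrf1, of which Orm1, an acute phase protein, was called lower (-0.51 ± 0.27). Zfpm1 was followed by Usp49, Zc3h11a, Piezo1, Fgfr3 and Ikbkb, Epor by Rbsn, Gimap6, Adcyap1r1, Zbtb47 and Svil, and the brightest Mkrn1 probe set by Oaz1, Frmd4b, Egfr, Apoc4 and Actr2.

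Several members are also expressed outside red cell precursors, so markers of other cells were read. At the 1.03% called over all genes, marker lists of this size would also give 0 calls. The 0 calls of these lists, here and below, are thus no result about the cells. Nfe2, Gata1, Tal1, Zfpm1 and Gfi1b are known from megakaryocytes, of whose list 8 genes were measured and 0 called (7 of 8 higher, median 0.03). Tubb1 differed by 0.30, without overlap between the groups (as were 1.29% of all probe sets in either direction), and Pf4 by 0.27. Mast cells also carry Gata1, and all 7 measured mast cell genes had a higher mean in the iron-deficient group (median 0.12) with 0 calls. The mast cell list mean was 5.11 to 5.28 in the iron-deficient rats and 4.82 to 5.10 in the pair-fed rats. The groups did not overlap but nearly met, at 5.112 against 5.10. How often list means separate by chance was not examined. The genes of this list were dim, each above 7.9% to 47.9% of all probe sets. The summed signal was 299 to 326 against 224 to 287 on the linear scale. Cpa3 (0.46, FDR 0.066) and Mcpt1 (0.31) had the largest differences of the mast cell list. Endothelial cells express Tal1 and Lmo2, and 9 of 10 endothelial genes had a mean at or above that of the pair-fed group (Eng differed by 0.00) without a call, with list means of 8.86 to 9.02 against 8.77 to 8.88 and summed signals of 7316 to 7939 against 6768 to 7401. Egfl7 (0.26) was without overlap, beside the same 1.29% of all probe sets, and Stab2 differed by 0.29. The part of these cells in the values of the members was not tested.

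**Figure D4:**
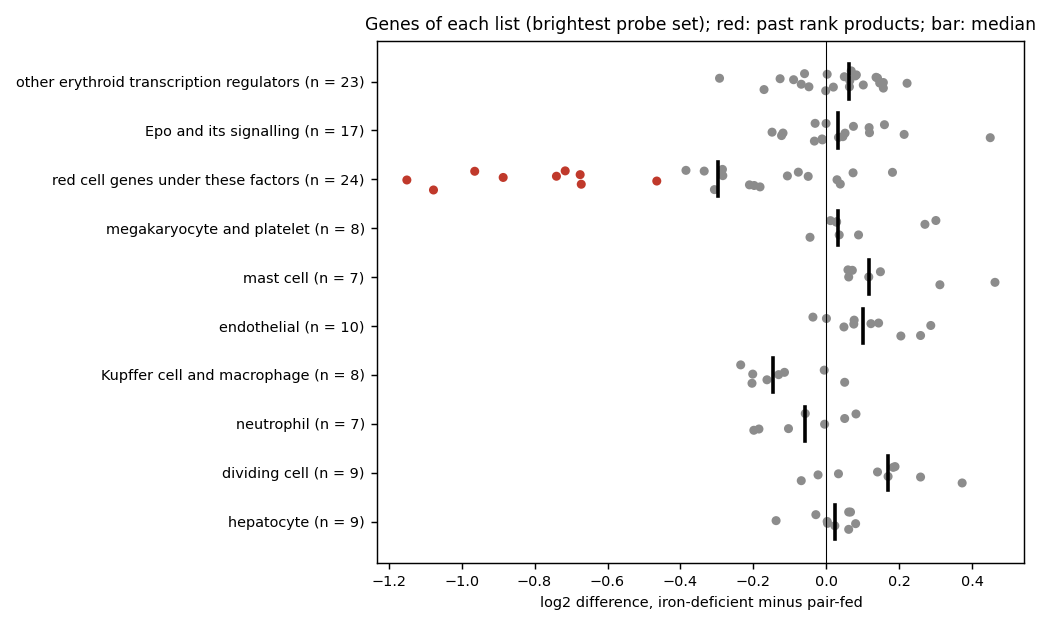
Difference in log2 signal (iron-deficient minus pair-fed) of every measured gene on each list, by its brightest probe set, with called genes in red and the median of each list drawn as a bar. The red cell list has 9 called genes and a median of -0.30, and the other 9 lists have 0 called genes and medians between -0.15 and 0.17. Lists of their size would also give 0 calls at the 1.03% called over all genes.

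Macrophage and Kupffer cell genes, whose cells take up old red cells, had 7 of 8 lower means (median -0.15) and 0 calls, with Cd68 at -0.24 ± 0.12 and C1qb at -0.20 ± 0.13. The highest mean of that list, 10.10, was in pair-fed rat 1, which was also the highest array for Nfe2, while the other arrays lay between 9.37 and 9.82. Iron-deficient rat 5 was likewise the highest of its group in both, with a list mean of 9.82 and Nfe2 at 6.05. Other arrays went the other way: pair-fed rat 5 had the lowest mean of its group, 9.46, with Nfe2 at 6.33. Iron-deficient rat 2 had the lowest mean of all, 9.37, with Nfe2 at 5.81. A relation of this list to Nfe2 was not tested. Neutrophil genes had a median of -0.06 and 0 calls (S100a8 -0.20, S100a9 -0.19). Genes of dividing cells differed by a median of 0.17, with Mki67 at 0.37 and Bub1 at 0.26, and 0 were called. The tissue label was checked with 9 hepatocyte genes, whose list mean was 13.99 to 14.11 in the iron-deficient and 14.00 to 14.11 in the pair-fed rats, far above the array medians of 6.19 to 6.22. Of these 0 were called, with Tat at -0.14 and Ass1 at 0.08. Ttr, at a difference of only 0.06, was also without overlap between the groups. The arrays showed no copy of one another, with correlations between arrays of at most 0.995. Iron-deficient rat 1 had the highest 3′ minus 5′ signals of the control genes (1.74 for beta-actin and 0.36 for GAPDH, against at most 1.33 and 0.11 on the other arrays). It was also the lowest array for Gata1 and the highest for Zfpm1 (1375148_at).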

How the data were processed

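RNA from 10 livers, 5 per group, was measured on Affymetrix GeneChip arrays. The authors deposited log2 values made with RMA, which corrects background, normalises quantiles and summarises the probes of a set. The members and the gene lists were chosen with earlier results of these data known. The 57 control probe sets among the 31099 were not analysed. Of the 31042 left, 20826 had 1 gene symbol, 436 several and 9780 none in the platform annotation, and 20758 were found in RefSeq by Entrez ID. Genes with several probe sets were read by the brightest. Calls used rank products (100 permutations, FDR under 0.05) over all probe sets. Intervals and SE came from limma 3.58.1 (R 4.3.3), and exact permutation tests (two-sided, 252 splits) used Python 3.11.15 with numpy 2.4.6. The text names every probe set of the members, in each list the called genes or, with no call, the 2 with the largest difference, and the 5 genes most like each member. Genes outside this rule (Fech, Tfrc, Epo, Jak2, Stat5a, Stat5b, Runx1, E2f2, Ldb1, Eng and Ttr) were named after their values were seen. So were the other Tfdp2, Car2, Kel and Slc4a1 probe sets. The number of arrays limits the precision. The labels name each liver as a separate rat. Alternatives were each array left out, replicate number as a block, limma, rank sums, a filter on dim probe sets, renormalisation, centring and gene means.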

Additional observations from a re-analysis of the deposited data

Results flagged for a closer look

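In 4 of the 36 sets of 5 arrays (18 probe sets in each group) 1 array stood far from the others of its group, judged by its gap to the nearest array over the range of the group, and chance marks about 1 set in 20. Klf1 read 4.954 in pair-fed rat 1, with the next pair-fed value at 5.527. Mkrn1 probe set 1376626_at read 6.92 in the same rat, with the next at 7.371, and this rat also had the lowest red cell list mean of its group (7.90). Mkrn1 probe set 1373496_at read 8.655 in iron-deficient rat 4, the rat with the highest red cell list mean of its group (8.00), with the next value at 8.363. Gata1 read 3.966 in iron-deficient rat 1, with the next at 4.436, and that array had the highest 3′ minus 5′ beta-actin signal of all 10 (1.74). The part of these measures in the values was not tested.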

How the results depend on the processing

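Rank products called 174 probe sets lower and 87 higher. With limma the counts were 0 and 0, with or without the replicate block, with rank sums 31 and 4, and without dim probe sets 107 and 57. The members had 3 calls by rank products, 0 with limma in both fits, 1 with rank sums (Hemgn) and 0 after the filter, which removed 11 of the 18 probe sets, Hemgn and Nfe2 among them. The differences themselves stayed at -1.23 (Hemgn), -0.64 (Nfe2) and -0.47 (Mkrn1 1379325_at) and lost their calls with limma in both fits, the last 2 also with rank sums and Mkrn1 after the filter. Mkrn1 1373496_at (-0.41) passed with 1000 permutations, an alternative chosen after seeing the data. With limma 0 red cell genes were called in both fits. With gene means 1 gene of the erythropoietin list (Socs2) and 1 of the mast cell list (Cpa3) were called. Deviations of same-numbered arrays correlated at -0.04 to 0.09, which cannot show whether the replicate numbers mark feeding pairs. Rank products over same-numbered pairs, the other replicate block, gave 3 member calls and 2 genes of the erythropoietin list. Leaving out each array in turn gave 84 to 187 lower and 47 to 95 higher calls, 1 to 4 for the members (1 without pair-fed rat 2), 7 to 9 for the red cell list, 0 to 2 for the erythropoietin list and 0 to 1 for the mast cell list. The difference then ran from -0.83 to -0.47 for Nfe2, -0.57 to -0.39 for Mkrn1 1379325_at and -0.53 to -0.33 for 1373496_at. Signs turned for Lmo2 (-0.022 to 0.05), Epor 1388090_a_at (-0.025 to 0.119) and Epor 1382766_at (-0.084 to 0.047). Renormalisation and centring changed no call of the members. Why the settings differ was not tested.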
